A study of Mus musculus with 12 samples.

Results

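Collagen genes were followed across 12 bulk RNA-seq libraries of mouse bone marrow hematopoietic stem cells (HSCs), the cells from which all blood lineages arise. The members were all rows whose gene symbol was Col, a number, the letter a and a number: 44 of 35869 genes. Each was taken by its name, but collagen genes as a subject were chosen with earlier results of these data known. A flow sort split the cells by CD41 into CD41pos and CD41neg HSCs, where CD41 is a surface protein of megakaryocytes and of stem cells primed towards them. WT mice were MxCre1-/-,RUNX1f/f and KO mice were MxCre1+/-,RUNX1f/f, so that every animal carried the floxed Runx1 allele and the genotypes differed in the MxCre transgene. All had polyIC injection 4 times, and cells were taken 4 weeks after the injections. There were 3 libraries in each of 4 groups: CD41pos WT (titled WT 1, 3 and 4), CD41neg WT (WT 2, 3 and 4), CD41pos KO (KO 1, 2 and 3) and CD41neg KO (KO 1, 2 and 3). The Mx promoter that drives Cre answers to interferon in many cell types, so deletion is not limited to HSCs. The labels do not say whether the libraries of a group came from separate mice, and if not, p-values measure only technical spread.

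Collagens are matrix proteins whose chains wind into a triple helix. Fibrillar collagens build the cables of bone, skin and tendon, network collagens build basement membranes, and the fibril-associated collagens with interrupted helices (FACITs) sit on fibril surfaces. In marrow, bone-lining cells, stromal cells and vessels are the known main sources, and collagen is also a ligand that platelets and their precursors sense through surface receptors.

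Library depth was 44108035 to 58946457 counts, and 21973 to 27097 genes had at least 1 count. Levels within a gene are given in CPM, counts scaled to library size with TMM factors. All 10 HSC markers on the list used were detected in every library. Their sum was 701 CPM in CD41pos WT 3, against 1460 and 1590 in CD41pos WT 1 and 4. In the other groups it was 1100 to 1940 CPM. Runx1 itself was at 141 to 159 CPM in CD41pos WT, 65.7 to 90.5 in CD41neg WT, 270.0 to 382 in CD41pos KO and 157 to 171 in CD41neg KO. These values count the whole gene, not the floxed part, so they do not check the deletion. Library numbers in the labels run from 1 to 10 in WT and from 13 to 22 in KO. The labels do not say what these numbers stand for, and whatever follows them cannot be told apart from genotype. The WT libraries differed widely among themselves. The 4 WT libraries numbered 6 or lower (CD41pos WT 1 and 4, CD41neg WT 2 and 4) had 512 to 3150 CPM of plasma and B cell marker genes in sum, against 114 and 323 in both libraries titled WT 3 and 28 to 171 in KO, and each collagen gene call lost without them is given with and without them. Without them each gate keeps 1 WT library (WT 3), which in CD41pos cells is the one with the low HSC marker sum. The WT spread is then assumed to be that of the KO groups, so the p-values of that fit carry no information on the spread within WT. That fit called 39.4% of all genes for KO against WT in CD41pos and 8.72% in CD41neg cells.

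Of the 44 collagen genes, 37 were detected, meaning at least 10 counts in at least 3 libraries, and 10 reached that count in all 12 libraries. Between 20 and 35 members had at least 10 counts in a single library. The 7 that were not detected were Col9a1, Col9a2, Col15a1, Col24a1, Col6a4, Col6a6 and Col8a2. By class, 10 of 11 fibrillar genes, 6 of 6 basement membrane genes, 6 of 8 beaded-filament and type VI-like genes, 7 of 9 FACITs, 2 of 3 short-chain network genes, 4 of 4 transmembrane genes, 1 of 2 multiplexins (Col18a1) and the anchoring fibril gene Col7a1 were detected. A filter on low counts kept 36 members for testing and left out 8, namely the undetected 7 and Col26a1, none of which exceeded 29 counts in a library. A member low everywhere except in 1 group passes that filter through that group alone.

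Several members are neighbours in the genome (GRCm38, mm10). Col4a1 and Col4a2 on chromosome 8 start head to head with an overlap of 22 bases, Col4a4 and Col4a3 on chromosome 1 start head to head 71 bases apart, and Col6a2 and Col6a1 lie on the same strand of chromosome 10. The stretches below lie just upstream of genes whose levels are described next, outside annotated exons, and the last is the gap between Col4a4 and Col4a3. They are read 5′ to 3′ along each gene's strand from RefSeq promoter windows of GRCm38.p6, with the gap along the strand of Col4a4. Capitals mark the RUNX core TGTGGT, searched on both strands.
Col1a2, chr6:4505373-4505492, plus strand, inside the longer annotated gene: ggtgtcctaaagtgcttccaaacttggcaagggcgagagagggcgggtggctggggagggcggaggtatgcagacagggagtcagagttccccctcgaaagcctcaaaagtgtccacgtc
Col6a1, chr10:76726169-76726288, minus strand: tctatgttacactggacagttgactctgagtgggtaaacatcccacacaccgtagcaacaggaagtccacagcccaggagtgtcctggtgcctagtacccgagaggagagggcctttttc
Col8a1, chr16:57754738-57754977, minus strand: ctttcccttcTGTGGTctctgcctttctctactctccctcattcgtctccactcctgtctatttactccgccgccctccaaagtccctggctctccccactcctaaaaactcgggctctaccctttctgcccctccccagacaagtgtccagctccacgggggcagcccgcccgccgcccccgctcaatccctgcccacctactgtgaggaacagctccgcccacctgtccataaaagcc
Col5a1, chr2:27886305-27886424, plus strand, within the antisense gene 2810430I11Rik: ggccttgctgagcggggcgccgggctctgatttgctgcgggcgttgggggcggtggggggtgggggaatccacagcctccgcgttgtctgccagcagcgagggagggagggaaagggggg
Col18a1, chr10:77166549-77166668, minus strand: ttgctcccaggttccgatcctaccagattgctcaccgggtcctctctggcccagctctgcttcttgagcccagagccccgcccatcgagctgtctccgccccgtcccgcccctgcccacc
Col4a4 and Col4a3, chr1:82586850-82586920, minus strand: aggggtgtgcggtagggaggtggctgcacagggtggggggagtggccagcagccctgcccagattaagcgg

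Windows were in the table for 35 of the 44 members, 38 windows in all. In the 250 bases before the start, TGTGGT occurred in 3 of these 38 (Col8a1, Col17a1 and an inner start of Col18a1), against 14.0% of 32851 windows of all genes. TATAAA occurred in 5 of 38 against 12.4%, and CCAAT in 13 of 38 against 33.8%. A match is a run of letters and not a measured site, and the shares among collagen genes were not tested against all genes.

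Levels are compared between genes in TPM, which is per transcript length. A few members made up most of the collagen RNA, and their order depended on the library. Mean TPM over the 12 libraries was 29.8 for Col4a2, 26.6 for Col1a1, 26.2 for Col1a2, 13.7 for Col4a1 and 12.5 for Col5a1. Next came Col18a1 at 3.11, Col16a1 at 2.45 and Col6a1 at 1.79 TPM, and no other member had a mean of 1 TPM. The place of Col1a1 comes from CD41pos WT 1 and 4 and CD41neg WT 2, at 66.5, 44.7 and 201.3 TPM, while it was at 0.1 to 2.0 TPM in the other 9 libraries. Col4a2 was the highest member in 8 of the 12 libraries. All collagen genes together took 0.0198% to 0.0993% of a library's counts.

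Both the total and the make-up of collagen RNA differed between libraries. Summed collagen TPM was 203, 37.0 and 142 in CD41pos WT 1, 3 and 4 and 447, 80.6 and 70.2 in CD41neg WT 2, 3 and 4. It was 66.0, 70.0 and 89.6 in CD41pos KO and 96.7, 63.8 and 97.3 in CD41neg KO, so that the KO libraries lay within the WT range. The type I chains Col1a1 and Col1a2 were 64.9%, 63.5% and 79.9% of it in CD41pos WT 1, CD41pos WT 4 and CD41neg WT 2, and 16.7% to 25.7% in the other 3 WT libraries. In KO the type I share was 1.36% to 11%, below every WT library. The basement membrane pair Col4a1 and Col4a2 supplied 10.8% to 51.2% in WT and 25.9% to 73.6% in KO.

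**Figure D1:**
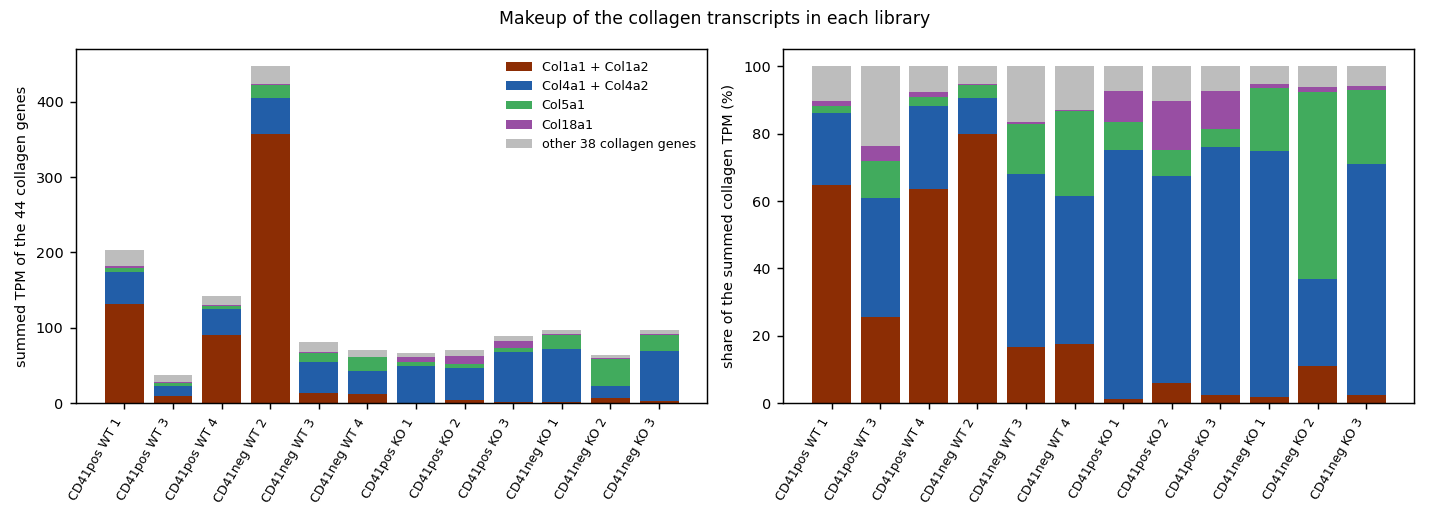
Summed TPM of the 44 collagen genes in each of the 12 libraries (left) and the same as percent of the sum (right), stacked as Col1a1 with Col1a2, Col4a1 with Col4a2, Col5a1, Col18a1 and the other 38 genes. CD41pos WT 1 and 4 and CD41neg WT 2 reach 203, 142 and 447 TPM through type I, while the other 9 lie between 37.0 and 97.3.

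The KO against WT comparison asks which transcripts differ when Runx1 is targeted. In CD41pos cells, 8 of 36 tested collagen genes changed, 22.2%, where 17.1% of all 19395 genes tested did (edgeR quasi-likelihood test, p-values adjusted by Benjamini-Hochberg over all genes, threshold 0.05). Lower in KO were 5 of 36 (Col1a1, Col1a2, Col6a1, Col6a2 and Col8a1), with 7.27% of all genes lower. Higher were Col14a1, Col18a1 and Col4a4. The count of 8 was 2 without CD41pos WT 1, 3 without CD41pos KO 1, and 2 without CD41pos KO 2 or KO 3. The all-gene count moved as well, from 3309 (17.1%) to between 1010 (5.21%, without CD41pos KO 2) and 4270 (22%, without CD41pos WT 4).

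In CD41neg cells 8 of 36 changed, 22.2%, against a background of 7.82%. Lower in KO were 6 (Col1a1, Col1a2, Col2a1, Col6a1, Col6a2 and Col8a1), where 3.97% of all genes were lower, and Col19a1 and Col4a4 were higher. This count was 3 without CD41neg WT 2, 5 without CD41neg WT 4 or CD41pos KO 3, 2 without CD41neg KO 1 or KO 3, and 4 without CD41neg KO 2. Leaving out 1 library also moved the all-gene count of 1517, to between 367 (1.89%, without CD41neg KO 3) and 3852 (19.9%, without CD41pos WT 3). The median log2 fold change of the 36 members was -0.24 in CD41pos cells and -0.2 in CD41neg cells, beside -0.08 and -0.03 for all genes tested. The comparisons within the gates have no library in common, but the labels KO 1, 2 and 3 and WT 3 and 4 occur in both gates. Same-numbered KO libraries of both gates deviated together, and 1 fit of all 12 libraries estimated the spread. A call in both gates is therefore not an independent repeat. Each gate comparison described later shares its libraries with these genotype comparisons. In bulk samples fewer cells of a type and less RNA per cell cannot be told apart.

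**Figure D2:**
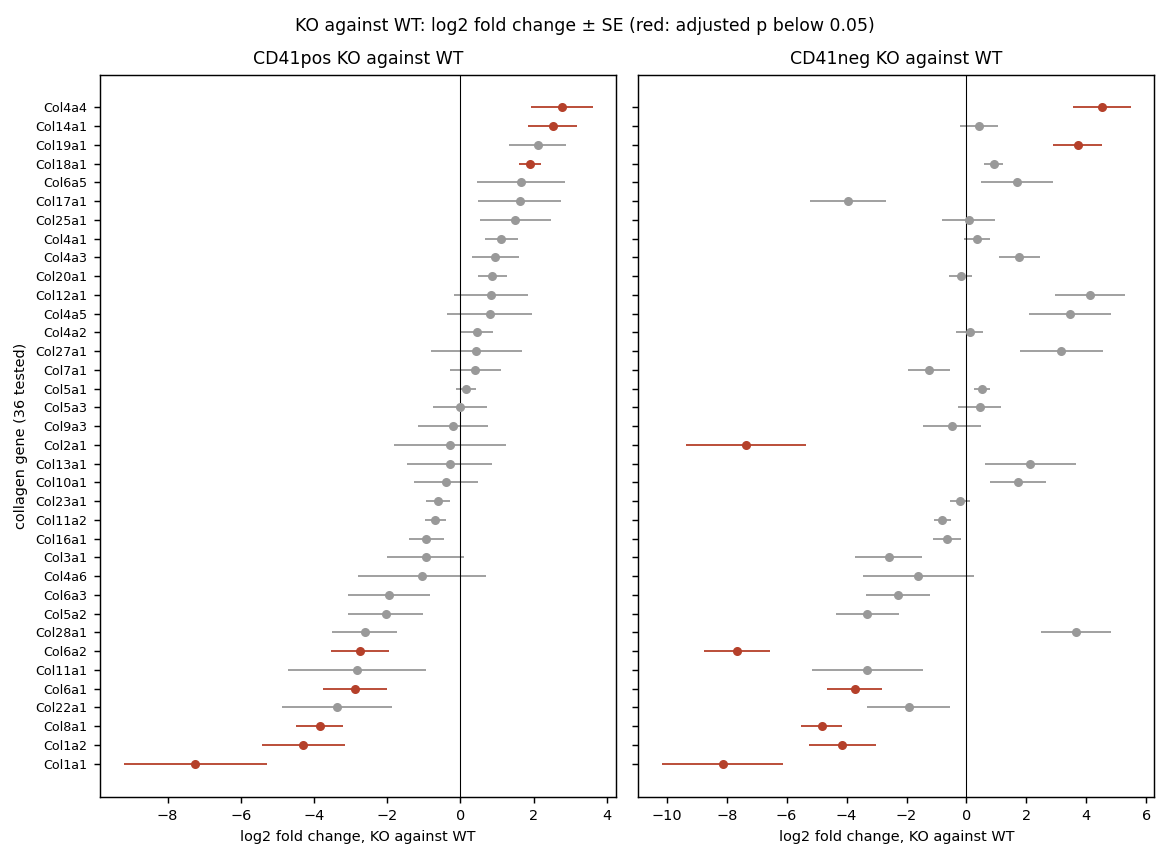
Log2 fold change of KO against WT for the 36 tested collagen genes in CD41pos (left) and CD41neg cells (right, on its own axis range), with bars of 1 standard error and red points for adjusted p below 0.05. Col1a1, Col1a2, Col6a1, Col6a2 and Col8a1 are red on the lower side in both gates, and Col4a4 is red on the higher side in both.

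Type I collagen is the main protein of bone matrix. Col1a1 (chr11:94936224-94953042) was at 124, 3.11 and 80.3 CPM in CD41pos WT 1, 3 and 4, at 361, 2.38 and 4.3 in CD41neg WT 2, 3 and 4, at 0.401, 0.376 and 0.579 in CD41pos KO 1, 2 and 3, and at 0.941, 0.275 and 0.119 in CD41neg KO 1, 2 and 3. The WT libraries spanned from 2.38 to 361 CPM, but the lowest of them still stood above the highest KO library. The log2 fold change of KO against WT was -7.24 ± 1.96 (SE, n = 3 per group, edgeR adjusted p = 0.0274) in CD41pos cells and -8.14 ± 2.03 (edgeR adjusted p = 0.0331) in CD41neg cells.

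Col1a2, the partner chain (chr6:4504814-4541544), was at 106, 18.2 and 71.8 CPM in CD41pos WT, 246, 20 and 19.4 in CD41neg WT, 1.15, 6.0 and 2.9 in CD41pos KO and 1.88, 10.7 and 3.52 in CD41neg KO, in the same library order. The groups did not overlap in either gate, and the KO 2 libraries were the highest KO values. Col1a2 fell by 4.29 ± 1.13 (SE) on the log2 scale in CD41pos cells (edgeR adjusted p = 0.0246) and by 4.14 ± 1.12 in CD41neg cells (edgeR adjusted p = 0.0429).

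The size of the type I difference rests on 3 WT libraries. Without CD41neg WT 2, the CD41neg difference was -2.91 for Col1a1 (edgeR adjusted p = 0.134) and -1.84 for Col1a2 (edgeR adjusted p = 0.185). With a term for the 4 WT libraries numbered 6 or lower, Col1a1 was at -2.39 in CD41pos cells (edgeR adjusted p = 0.219) and -2.95 in CD41neg cells (edgeR adjusted p = 0.19). With these 4 libraries left out, and so 1 WT library a gate, Col1a1 was at -2.69 and -2.43, and Col1a2 at -2.35 and -1.89 (edgeR adjusted p = 0.0392, 0.127, 0.0844 and 0.248). In CD41pos cells both type I calls were lost without CD41pos WT 1 or any 1 CD41pos KO library, with adjusted p between 0.0521 and 0.102. In CD41neg cells the Col1a1 call was lost without CD41pos KO 3 or any 1 CD41neg KO library (0.0518 to 0.116), and the Col1a2 call was kept only without WT 3 of either gate, with p-values of 0.0502 to 0.185 in the other 10.

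The balance of the chains also differed between WT libraries. The ratio of Col1a1 to Col1a2 TPM was 1.02 in CD41pos WT 1, 0.985 in CD41pos WT 4 and 1.29 in CD41neg WT 2. It was 0.145 in CD41pos WT 3, 0.107 in CD41neg WT 3 and 0.192 in CD41neg WT 4, and 0.0294 to 0.462 in the KO libraries. The other 3 WT libraries therefore held more Col1a2 than Col1a1 transcript, as all 6 KO libraries did.

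Over the 12 libraries, log2(TPM + 1) of Col1a1 was closest among collagen genes to Col22a1 (Pearson r = 0.941) and Col1a2 (r = 0.934). Col22a1 was at 0.1, 0.2 and 0.2 TPM in CD41pos WT 1, CD41pos WT 4 and CD41neg WT 2 and at 0.0 in every other library. Its r rests on these values near the floor, rounded to 1 decimal. Among the 11378 other genes with a mean of at least 5 CPM, collagen genes left out, the closest were Gm35035 (Pearson r = 0.913), Dok3 (r = 0.91), Rhobtb1 (r = 0.903), Ccdc88b (r = 0.9) and Hgfac (r = 0.899). The 12 libraries include the genotype groups and the wide WT spread, which the genes share. Dok3 was highest in CD41neg WT 2, like Col1a1, but its range over libraries was narrower, from 6.59 to 35.4 CPM.

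Other fibrillar genes were much lower. Col3a1, the reticular-fibre collagen that accompanies type I, was at 1.49, 1.84 and 0.101 CPM in CD41pos WT, 4.5, 2.52 and 0.227 in CD41neg WT, 0.073, 0.878 and 0.807 in CD41pos KO and 0.47, 0.31 and 0.408 in CD41neg KO. Groups overlapped in both gates, and WT 4 was the lowest WT library in each. The differences did not pass the test, at -0.95 ± 1.06 (SE; edgeR adjusted p = 0.553) in CD41pos cells and -2.6 ± 1.11 (edgeR adjusted p = 0.16) in CD41neg cells.

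Col5a2, a chain of the type V collagen that seeds type I fibrils, was at 0.887, 1.04 and 0.958 CPM in CD41pos WT, 8.63, 1.2 and 0.165 in CD41neg WT, 0.109, 0.394 and 0.193 in CD41pos KO and 0.176, 0.55 and 0.272 in CD41neg KO. CD41neg WT 2 was again the highest library, and CD41pos WT lay above CD41pos KO without overlap. Neither difference passed the test (-2.04 ± 1.03, edgeR adjusted p = 0.174, and -3.31 ± 1.05, edgeR adjusted p = 0.0705).

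Col2a1, the cartilage collagen, was at 0.106, 0.182 and 0.571 CPM in CD41pos WT, 13.0, 0.0908 and 0.0207 in CD41neg WT, 0.219, 0.197 and 0.298 in CD41pos KO and 0.0588, 0.0172 and 0.0 in CD41neg KO. CD41neg WT 2 alone stood out, and the CD41neg groups overlapped. The CD41neg difference of -7.36 ± 2.01 (SE; edgeR adjusted p = 0.0446) became -1.08 (edgeR adjusted p = 0.629) without that library and -1.8 (edgeR adjusted p = 0.451) without the 4 WT libraries numbered 6 or lower. The call was also lost without CD41pos WT 1, any 1 CD41pos KO library or any 1 CD41neg KO library (0.0555 to 0.14). Of 6 cartilage markers in the table, Acan, Sox9, Matn1 and Hapln1 were at 0 in CD41neg WT 2, and over all libraries Acan, Sox9, Matn1, Matn3 and Hapln1 reached at most 0.136, 0.318, 0.351, 0.176 and 0.0908 CPM. Comp was at 1.93, 2.82 and 2.44 CPM in CD41neg WT 2, 3 and 4 and 0.431 to 0.791 in CD41neg KO (-1.96 ± 0.35, edgeR adjusted p = 0.00917). It was lower in KO like Col2a1, but CD41neg WT 2, the highest library for Col2a1, was the lowest CD41neg WT library for Comp. The part of Comp in the Col2a1 result was not tested. Col11a2 was at 5.54 to 7.9 CPM in CD41pos WT and 6.62 to 13.1 in CD41neg WT, against 3.97 to 5.16 and 4.59 to 5.88 in KO, with no overlap in either gate but no call (-0.68 ± 0.29, edgeR adjusted p = 0.116, and -0.8 ± 0.29, edgeR adjusted p = 0.106).

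The type VI chains Col6a1 and Col6a2 and the type VIII chain Col8a1 were low in every library and lower in KO. Type VI forms beaded filaments around cells, and type VIII is a short-chain network collagen of vessel walls and other matrices. For these genes the WT libraries were closer to each other than for type I.

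Col8a1 (chr16:57624258-57754737) was at 5.06, 2.43 and 1.09 CPM in CD41pos WT, 3.14, 2.07 and 3.08 in CD41neg WT, 0.164, 0.305 and 0.123 in CD41pos KO and 0.0588, 0.172 and 0.051 in CD41neg KO. All 6 WT libraries stood above all 6 KO libraries. With 65 to 285 counts in WT libraries and 3 to 17 in KO libraries, Col8a1 entered the test only through the groups where it is high. It fell by 3.84 ± 0.64 (SE, n = 3 per group) on the log2 scale in CD41pos cells (edgeR adjusted p = 0.00427) and fell by 4.83 ± 0.69 in CD41neg cells (edgeR adjusted p = 0.00368). With WT 3 as the one WT library of each gate the values were -3.52 and -4.41. Both calls held under every alternative run.

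Col6a2 (chr10:76595762-76623630) was at 6.53, 3.81 and 1.34 CPM in CD41pos WT, 2.42, 5.52 and 4.16 in CD41neg WT, 0.109, 0.896 and 0.737 in CD41pos KO and 0.0, 0.0 and 0.051 in CD41neg KO. With 80 to 368 counts in WT libraries and 0 to 50 in KO libraries, it too entered the test only through the groups where it is high. In CD41neg cells it had 568 counts over the WT libraries and 3 over the KO libraries, a depth-adjusted ratio of WT over KO of 221 (95% exact interval 75.3 to 1080, counting error only). That call (edgeR adjusted p = 0.00389) held under every alternative run. In CD41pos cells the difference was -2.74 ± 0.79 (SE; edgeR adjusted p = 0.0342). It was lost without CD41pos WT 1 (-2.14, edgeR adjusted p = 0.0933), without CD41pos WT 3 (edgeR adjusted p = 0.0558) or without any 1 CD41pos KO library (0.0737 to 0.0873), and without the 4 WT libraries numbered 6 or lower it was -2.63 (edgeR adjusted p = 0.065).

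Col6a1 (chr10:76708792-76726168) was at 7.49, 2.54 and 3.16 CPM in CD41pos WT, 4.29, 3.59 and 3.76 in CD41neg WT, 0.255, 1.18 and 0.351 in CD41pos KO and 0.431, 0.0 and 0.442 in CD41neg KO. Every WT library exceeded every KO library. The log2 fold change was -2.88 ± 0.87 (SE; edgeR adjusted p = 0.0417) in CD41pos cells and -3.73 ± 0.92 (edgeR adjusted p = 0.032) in CD41neg cells. The CD41pos call was lost in 8 of 12 fits that each left out 1 library (0.052 to 0.135, the highest without CD41pos KO 3), and was kept without CD41pos WT 3 or 4, CD41neg WT 4 or CD41neg KO 2. The CD41neg call was lost without CD41neg WT 2 or 4 or CD41neg KO 1 or 3 (0.0582 to 0.0817), and both were lost without the 4 WT libraries numbered 6 or lower (-2, edgeR adjusted p = 0.252, and -3.62, edgeR adjusted p = 0.123).

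Col6a3, the long chain of the same type VI molecule, followed another order. It was at 0.106, 2.29 and 0.168 CPM in CD41pos WT, 4.33, 3.45 and 3.22 in CD41neg WT, 0.31, 0.323 and 0.0176 in CD41pos KO and 0.216, 1.44 and 0.578 in CD41neg KO. CD41pos WT 1 and 4 were as low as KO libraries, and CD41neg KO lay below CD41neg WT without overlap. It is described here after its values were seen, and neither difference passed the test (-1.95 ± 1.12, edgeR adjusted p = 0.227, and -2.29 ± 1.07, edgeR adjusted p = 0.197). Without CD41pos WT 3 the CD41pos difference was 0.67, of the opposite sign.

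**Figure D3:**
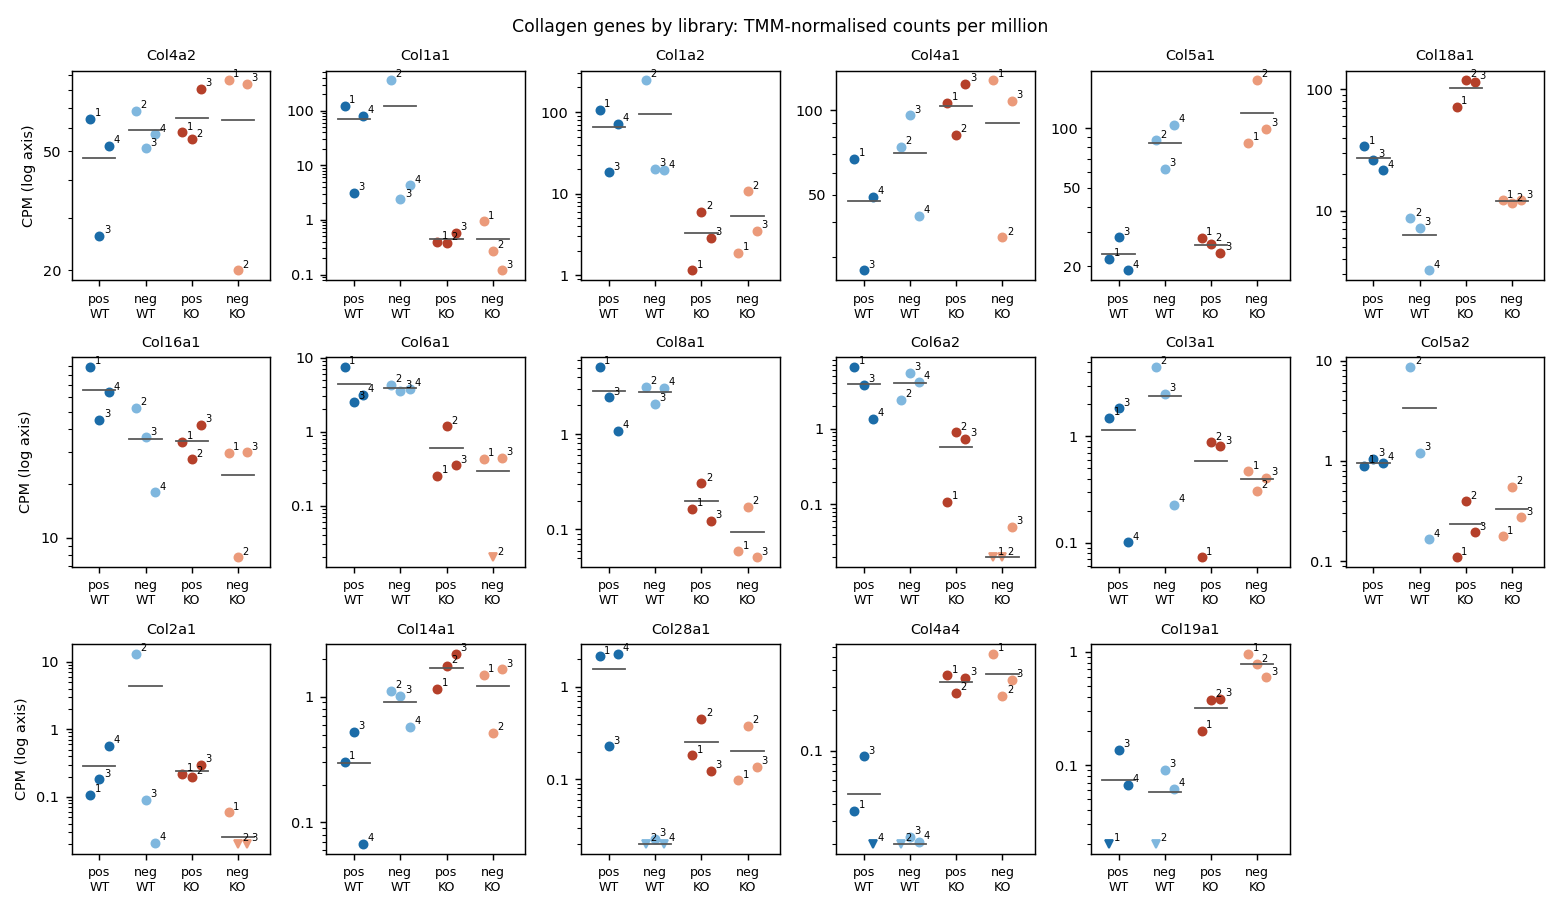
Levels in CPM on a log axis of the 17 collagen genes named by rule, with 1 point per library numbered by replicate, bars at group means and triangles for values under 0.02 CPM drawn at 0.02. Col1a1 spans 2.38 to 361 CPM among WT libraries, while for Col8a1 the WT libraries lie between 1.09 and 5.06 and the KO libraries between 0.051 and 0.305.

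Col18a1 moved the other way. It encodes a multiplexin, a basement membrane proteoglycan whose end fragment is endostatin. Col18a1 (chr10:77052178-77166548) was at 33.8, 26.3 and 21.5 CPM in CD41pos WT, 8.63, 7.24 and 3.22 in CD41neg WT, 72.0, 119 and 115 in CD41pos KO and 12.2, 11.5 and 12.2 in CD41neg KO. The 4 groups did not overlap at all, and their means ± SD (n = 3) were 102 ± 25.9 in CD41pos KO, 27.2 ± 6.2 in CD41pos WT, 11.9 ± 0.43 in CD41neg KO and 6.37 ± 2.81 CPM in CD41neg WT.

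In CD41pos cells Col18a1 rose by 1.9 ± 0.31 (SE) on the log2 scale in KO (edgeR adjusted p = 0.00403), a call that held under every alternative run. The CD41neg difference of 0.91 ± 0.31 did not pass (edgeR adjusted p = 0.0919). A test of whether the effect of genotype differed between the gates gave 1.0 ± 0.44 (edgeR unadjusted p = 0.0409, adjusted p = 0.872), so a difference between gates was not established. Between gates, CD41pos exceeded CD41neg by 2.09 ± 0.32 in WT (edgeR adjusted p = 0.00392) and by 3.09 ± 0.33 in KO (edgeR adjusted p = 0.000469).

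The gate comparisons ask how CD41pos and CD41neg HSCs differ within a genotype. In WT, 3 of 36 members changed (8.33%, against 5.59% of all genes): Col18a1 and Col28a1 were higher in CD41pos cells and Col5a1 was lower. In KO 3 of 36 changed as well (8.33%, against 2.79%): Col18a1 and Col6a2 were higher and Col5a1 was lower. For scale, Itga2b, the gene of CD41, was higher in the CD41pos gate by 2.59 ± 0.29 (SE, log2; edgeR adjusted p = 0.000906) in WT and by 2.18 ± 0.29 in KO (edgeR adjusted p = 0.00181).

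Col5a1, the chain shared by most type V collagen (chr2:27886425-28039514), was at 21.8, 28.1 and 19.1 CPM in CD41pos WT, 86.9, 62.1 and 104 in CD41neg WT, 27.9, 26 and 23.4 in CD41pos KO and 84.4, 175 and 99.4 in CD41neg KO. Every CD41neg library exceeded every CD41pos library, in both genotypes. The log2 difference of CD41pos from CD41neg was -1.87 ± 0.27 (SE; edgeR adjusted p = 0.00308) in WT and -2.22 ± 0.28 (edgeR adjusted p = 0.0013) in KO, and the KO call held under every alternative run. In WT it was -1.21 (edgeR adjusted p = 0.0913) without the 4 WT libraries numbered 6 or lower, which leaves 1 WT library per gate. Genotype did not move it past the test in CD41pos (0.16 ± 0.27, edgeR adjusted p = 0.697) or CD41neg cells (0.51 ± 0.26, edgeR adjusted p = 0.245). Col5a1 shares 99 exonic bases (1.17%) with the antisense gene 2810430I11Rik and 113 (1.33%) with Gm13372, whose reads this strand-blind kit cannot separate.

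Col28a1, a type VI-like collagen known from peripheral nerve, was at 2.13, 0.227 and 2.27 CPM in CD41pos WT, 0.0195, 0.0227 and 0.0 in CD41neg WT, 0.182, 0.448 and 0.123 in CD41pos KO and 0.098, 0.378 and 0.136 in CD41neg KO. CD41pos WT 1 and 4 stood above all other libraries. In WT there were 265 counts over the CD41pos libraries and 2 over the CD41neg libraries, a depth-adjusted ratio of 119 (95% exact interval 32.6 to 988, counting error only; edgeR adjusted p = 0.00904). Without the 4 WT libraries numbered 6 or lower the log2 difference was 3.13 (edgeR adjusted p = 0.248). KO differed from WT by -2.61 in CD41pos (edgeR adjusted p = 0.0628) and 3.67 in CD41neg cells (edgeR adjusted p = 0.0724), neither past the test, and the CD41pos value was 0.23 without the same 4 libraries.

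In KO, Col6a2 had 98 counts over the CD41pos libraries and 3 over the CD41neg libraries, a ratio of 32.7 (95% exact interval 10.9 to 162, counting error only; edgeR adjusted p = 0.0361). With the animal label as a block, since same-numbered KO libraries of both gates deviated together, its log2 difference was 4.96 (edgeR adjusted p = 0.055). Without any 1 of CD41pos KO 2 and 3 and CD41neg KO 1, 2 and 3 the call was lost too (0.0648 to 0.124). With the same block in WT, where labels pair only WT 3 and 4 and these did not deviate together, none of the 3 calls was kept: Col18a1 was at 2.29 (edgeR adjusted p = 0.0536), Col28a1 at 6.07 (edgeR adjusted p = 0.132) and Col5a1 at -1.79 (edgeR adjusted p = 0.111). CD41pos WT 4 deviated with CD41neg WT 2 (r = 0.574) and not with its own label, so the WT block does not decide these calls.

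**Figure D4:**
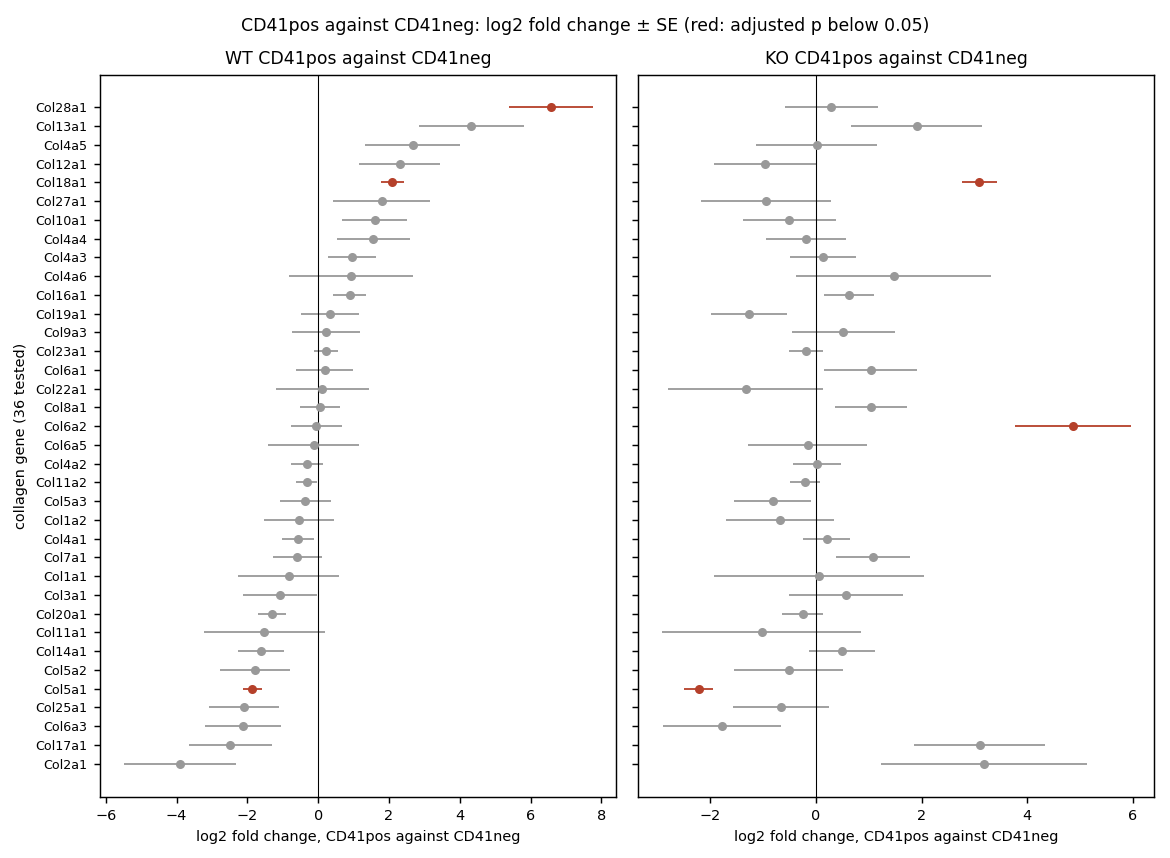
Log2 difference of CD41pos from CD41neg for the 36 tested collagen genes in WT (left) and KO (right, on its own axis range), with bars of 1 standard error and red points for adjusted p below 0.05. Col18a1 lies on the CD41pos side (2.09 and 3.09) and Col5a1 on the CD41neg side (-1.87 and -2.22) in both genotypes.

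The interaction of genotype and gate was past the threshold for 0 of 36 members and 0.0% of all genes (edgeR). At an unadjusted p under 0.05 there were 6 members, 16.7%, against 5.64% of all genes: Col14a1, Col17a1, Col18a1, Col28a1, Col2a1 and Col6a2. Adjusted p-values of these ran from 0.589 for Col28a1 to 0.872 for Col18a1. On TPM limma called 0, DESeq2 called 2 members, Col28a1 and Col6a2, and edgeR without the 4 WT libraries numbered 6 or lower called 2 others, Col27a1 and Col18a1. Of all genes, DESeq2 called 73 (0.385%) and the fit without the 4 libraries 3467 (17.9%), beside 5.88% of the 34 members with a DESeq2 adjusted p and 5.56% of the 36 members in the other fit.

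Among basement membrane chains, the abundant pair did not change with genotype by the test. Col4a1 (chr8:11198423-11312826) was at 67.0, 26.9 and 49.1 CPM in CD41pos WT, 74.0, 95.9 and 42.1 in CD41neg WT, 106, 81.8 and 124 in CD41pos KO and 128, 35.3 and 108 in CD41neg KO. CD41pos KO lay above CD41pos WT without overlap, while CD41neg groups overlapped. The differences were 1.12 ± 0.45 (SE; edgeR adjusted p = 0.096) and 0.35 ± 0.44 (edgeR adjusted p = 0.645).

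Col4a2 (chr8:11312805-11449287) was at 64.3, 26.1 and 52.1 CPM in CD41pos WT, 68.5, 51.2 and 57.0 in CD41neg WT, 57.9, 54.9 and 81.2 in CD41pos KO and 86.6, 20 and 84.2 in CD41neg KO. Groups overlapped in both gates, and CD41neg KO 2 was the lowest library. The differences were 0.45 ± 0.45 (SE; edgeR adjusted p = 0.504) and 0.11 ± 0.45 (edgeR adjusted p = 0.9). In each library Col4a1 had a lower TPM than Col4a2, with ratios of 0.252 to 0.639 in WT and 0.436 to 0.625 in KO.

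The head-to-head pair Col4a4 and Col4a3, chains of kidney and lung basement membranes, was rare. Col4a4 (chr1:82448423-82586849) was at 0.0355, 0.0908 and 0.0168 CPM in CD41pos WT, 0.0, 0.0227 and 0.0207 in CD41neg WT, 0.365, 0.269 and 0.351 in CD41pos KO and 0.529, 0.258 and 0.34 in CD41neg KO. All 6 KO libraries stood above all 6 WT libraries, at no more than 0.529 CPM. It had 0 to 4 counts in WT libraries and 15 to 27 in KO libraries, so it entered the test only through the groups where it is high. The CD41pos difference was 2.77 ± 0.85 (SE; edgeR adjusted p = 0.0435), lost in 8 of 12 fits that each left out 1 library (0.0525 to 0.104, the highest without CD41pos KO 3), without the low-count filter (edgeR adjusted p = 0.0857) and without the 4 WT libraries numbered 6 or lower (1.91, edgeR adjusted p = 0.145). In CD41neg cells there were 62 counts in KO and 2 in WT, a ratio of 26.5 (95% exact interval 7.04 to 224, counting error only; edgeR adjusted p = 0.0193), lost without CD41neg WT 4 or CD41neg KO 1 or 3 (0.0563 to 0.0622) and without those 4 (3.91, edgeR adjusted p = 0.0759). Its neighbour Col4a3 was at 0.204 to 0.403 CPM in CD41pos WT, 0.039 to 0.227 in CD41neg WT, 0.474 to 0.632 in CD41pos KO and 0.314 to 0.646 in CD41neg KO, above WT in both gates without overlap but without a call (0.95 ± 0.64, edgeR adjusted p = 0.311, and 1.77 ± 0.67, edgeR adjusted p = 0.12).

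FACITs went in different directions. Col14a1, which binds fibrils through decorin, was at 0.302, 0.522 and 0.0672 CPM in CD41pos WT, 1.11, 1.02 and 0.579 in CD41neg WT, 1.15, 1.77 and 2.19 in CD41pos KO and 1.49, 0.516 and 1.65 in CD41neg KO. CD41pos WT was the lowest group, and it stood below CD41pos KO without overlap. The CD41pos difference was 2.53 ± 0.67 (SE; edgeR adjusted p = 0.0253), lost without CD41pos WT 1 or CD41pos KO 2 or 3 (0.0591 to 0.0814) and without the 4 WT libraries numbered 6 or lower (1.79, edgeR adjusted p = 0.111).

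Col19a1 was at 0.0177, 0.136 and 0.0672 CPM in CD41pos WT, 0.0195, 0.0908 and 0.062 in CD41neg WT, 0.201, 0.376 and 0.386 in CD41pos KO and 0.96, 0.774 and 0.595 in CD41neg KO. Both KO groups stood above WT without overlap. With 1 to 6 counts in WT libraries and 11 to 49 in KO libraries, it too entered the test only through the groups where it is high. The CD41neg difference passed (3.72 ± 0.82, edgeR adjusted p = 0.0214) and the CD41pos difference did not (2.12 ± 0.78, edgeR adjusted p = 0.0769). The CD41neg call was lost without CD41neg WT 2 or 4 or any 1 CD41neg KO library (0.051 to 0.0668) and without the 4 WT libraries numbered 6 or lower (3.06, edgeR adjusted p = 0.0727).

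Col16a1, the most abundant FACIT, was at 88.3, 45.0 and 63.9 CPM in CD41pos WT, 52.3, 36 and 17.9 in CD41neg WT, 34.0, 27.2 and 42.3 in CD41pos KO and 29.5, 7.81 and 29.8 in CD41neg KO. CD41pos KO lay below CD41pos WT by a narrow margin, and CD41neg groups overlapped. The differences were -0.93 ± 0.47 (SE; edgeR adjusted p = 0.176) and -0.66 ± 0.47 (edgeR adjusted p = 0.394). The remaining tested members, among them all 4 transmembrane collagens and Col7a1, passed no test in any of the 5 comparisons.

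The wider collagen pathway was followed with 72 genes that are not members, of which 66 were tested. In CD41pos cells 4 were higher and 12 lower in KO, and in CD41neg cells 0 were higher and 15 lower, against the 17.1% and 7.82% of all genes called in either direction. Without CD41pos KO 1, 2 or 3 the first total of 16 was 6, 3 or 5, and the second of 15 was 9 and 8 without CD41neg WT 2 and 4, and 9, 8 and 4 without CD41neg KO 1, 2 and 3. Lower in KO were 7.27% of all genes in CD41pos and 3.97% in CD41neg cells. Enzymes that trim propeptides and crosslink fibrils gave 5 of 12 lower in each gate. These included Adamts2, the procollagen N-proteinase, at -3.14 ± 0.49 (SE; edgeR adjusted p = 0.00354) in CD41pos and -6.74 ± 0.63 (edgeR adjusted p = 0.000409) in CD41neg cells, and the crosslinking enzyme Loxl1 at -2.56 ± 0.56 (edgeR adjusted p = 0.0118) and -3.14 ± 0.58 (edgeR adjusted p = 0.0102). Lox itself was lower in CD41neg cells (-5.38 ± 0.91, edgeR adjusted p = 0.00783), and Pcolce, which speeds removal of the other propeptide, in CD41pos cells (-1.77 ± 0.48, edgeR adjusted p = 0.0266).

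Of 16 folding and modification genes 1 fell in each gate, 6.25%, near the 7.27% and 3.97% of all genes that were lower, and it was Serpinh1, the collagen chaperone HSP47. Serpinh1 ran from 8.3 to 26.5 CPM in WT and 0.394 to 2.29 in KO, with differences of -3.86 ± 0.51 (SE; edgeR adjusted p = 0.00201) and -3.6 ± 0.49 (edgeR adjusted p = 0.00313). Against the same 7.27% and 3.97%, fibril-associated matrix genes were lower for 2 of 12 in CD41pos and 3 of 12 in CD41neg cells. Among them Sparc, a collagen-binding matrix protein, ran from 26.4 to 119 CPM in WT and 2.77 to 10.1 in KO. Prelp was lower in both gates (-2.61 ± 0.64 and -3.35 ± 0.66) and the proteoglycan decorin (Dcn) in CD41neg cells (-4.9 ± 1.07, edgeR adjusted p = 0.0206).

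The calls that follow stand beside 17.1% of all genes called in CD41pos and 7.82% in CD41neg cells, in either direction. Of 7 secretion genes, the export factors Mia3 (0.58 ± 0.16, SE) and Sec23a (1.02 ± 0.3) rose in CD41pos KO cells, and Kdelr3 fell in both gates (-2.27 ± 0.58 and -2.09 ± 0.57). Of 9 breakdown genes, the membrane collagenase Mmp14 fell in both (-0.98 ± 0.28 and -1.03 ± 0.28), and Mmp13 and Timp3 in CD41neg cells (-5.65 ± 1.4 and -1.7 ± 0.39). Of 10 receptors, Itgb1 rose in CD41pos KO cells (0.79 ± 0.2, edgeR adjusted p = 0.0206), Ddr1 fell there (-2.71 ± 0.67, edgeR adjusted p = 0.019), and Itga1 fell in both gates (-2.0 ± 0.57 and -2.35 ± 0.57). Itga2, which pairs with Itgb1 as the platelet collagen receptor and is named here after its values were seen, was at 1.97, 2.25 and 4.5 CPM in CD41pos WT and 7.81, 10.7 and 7.86 in CD41pos KO (1.59 ± 0.46, edgeR adjusted p = 0.0347).

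Between gates, 3 of the 66 pathway genes changed in WT (1 higher in CD41pos, 2 lower) and 7 in KO (5 higher, 2 lower). These are 4.55% and 10.6%, against 5.59% and 2.79% of all genes. Mmp14 was lower in CD41pos cells in both genotypes (-1.82 ± 0.29, SE, edgeR adjusted p = 0.00447 in WT, and -1.78 ± 0.29, edgeR adjusted p = 0.00569 in KO), as was the procollagen proteinase Adamts3 (-1.21 ± 0.24 and -1.52 ± 0.25). Higher in CD41pos KO cells were the inhibitor Timp3 (2.77 ± 0.4, edgeR adjusted p = 0.00313), the hydroxylase P3h2 (2.87 ± 0.47, edgeR adjusted p = 0.00586) and Adamts2 (3.35 ± 0.61, edgeR adjusted p = 0.0115).

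Markers of some other marrow cells were also lower in KO, but not of all. In both gates 0 of 6 macrophage, 0 of 4 erythroblast and 0 of 3 tested T cell markers were called for KO against WT. Of all genes, 7.27% were lower in KO in CD41pos and 3.97% in CD41neg cells. The 10 marrow stroma markers summed to 95.9 to 196 CPM in WT and 16.1 to 31.8 in KO, and 5 of 10 were lower in KO in each gate. Cxcl12, the stromal chemokine, was at -3.26 ± 0.37 (SE; edgeR adjusted p = 0.0015) in CD41pos and -4.41 ± 0.39 (edgeR adjusted p = 0.000409) in CD41neg cells. Osteoblast markers summed to 27.4, 24.9 and 26.5 CPM in CD41pos WT, 56.3, 19.8 and 13.4 in CD41neg WT and 4.12 to 8.28 in KO, with 4 of 8 lower in CD41pos and 1 of 8 in CD41neg cells. CD41neg WT 2, the highest library for type I, was also the highest for osteoblast markers. The CD41pos WT sums were close to each other, while Col1a1 was at 124, 3.11 and 80.3 CPM in CD41pos WT 1, 3 and 4. Ibsp was the largest part of each WT sum, at 8.87 to 26.4 CPM in WT and 0.0344 to 4.53 in KO. Bglap, osteocalcin, was at 0.639, 0.568 and 5.58 CPM in CD41pos WT, 12, 0.0 and 0.6 in CD41neg WT and at most 0.098 in KO. Not every marker on the list fell. Omd was at 0.721, 0.386 and 0.93 CPM in CD41neg WT and 0.588, 1.84 and 1.63 in CD41neg KO. Phex was at 0.273, 1.27 and 0.0 CPM in CD41neg WT and 0.372, 0.361 and 0.884 in CD41neg KO.

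Endothelial markers summed to 309 to 479 CPM in WT and 145 to 290 in KO. Much of the sum was Tie1, at 103 to 177 CPM in WT and 28.6 to 151 in KO, and Egfl7, at 80.7 to 132 and 40.7 to 78.1. Cdh5 was at 0.202 to 6.76 CPM in WT and 0.108 to 0.725 in KO. In CD41pos cells 1 of 10 was lower, near the 7.27% of all genes that were lower. In CD41neg cells 6 of 10 were lower, against 3.97%. Kdr went the other way in CD41pos cells, at 10.5, 2.77 and 12.8 CPM in WT and 18.3, 28.5 and 14.7 in KO. Basophil markers summed to 93.9 to 587 CPM in WT and 39.4 to 92.5 in KO, and 3 of 4 were lower in both gates. These were Prss34, Mcpt8 and Fcer1a, at no more than 0.774, 0.807 and 0.825 CPM in KO. Cpa3 made up most of the KO sums and went the other way. It was at 22.0 to 53.5 CPM in CD41pos WT and 79.4 to 87.6 in CD41pos KO. The part of these cells in the collagen results was not tested.

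**Figure D5:**
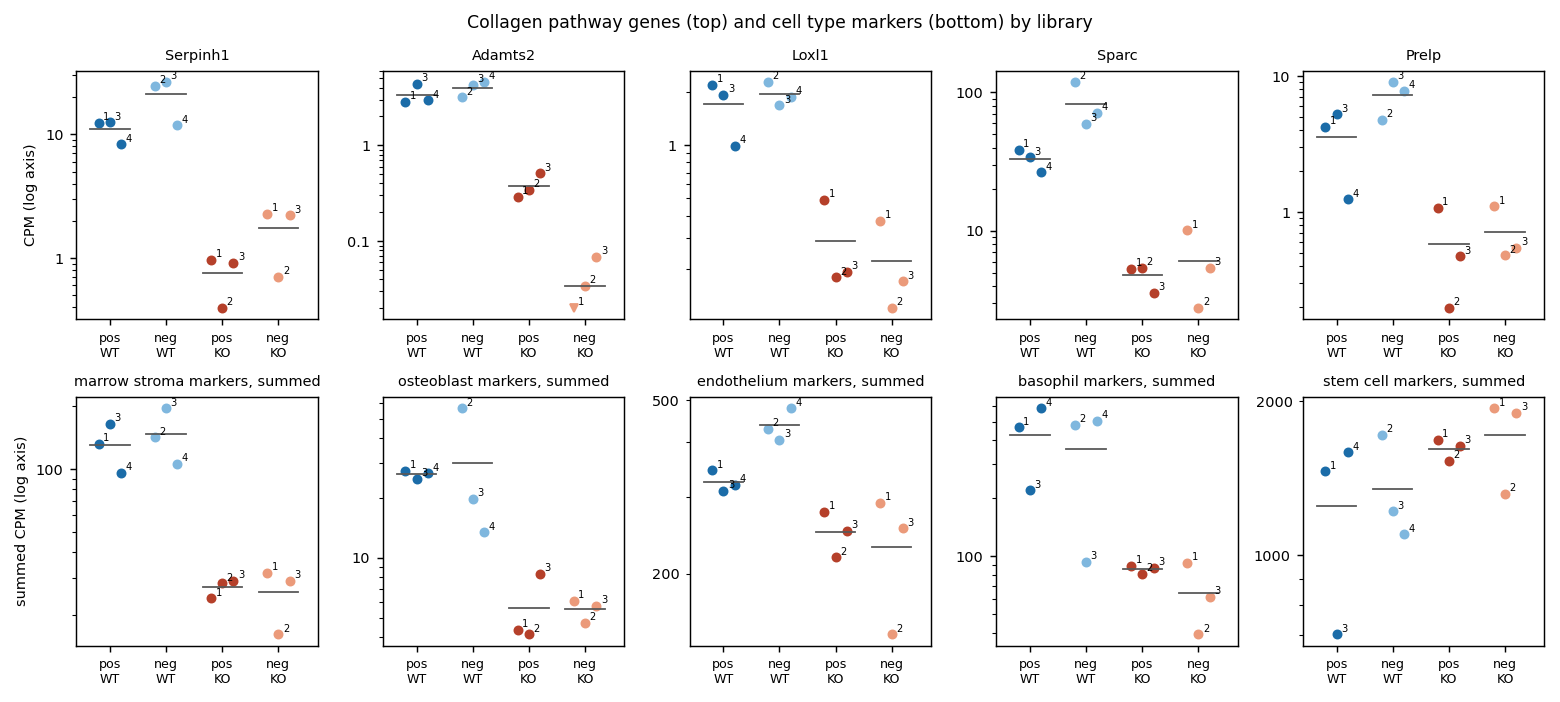
CPM of 5 collagen pathway genes (top) and summed CPM of 5 marker lists (bottom) on log axes, with 1 point per library numbered by replicate, bars at group means and a triangle for a value under 0.02 CPM drawn at 0.02. Serpinh1 lies at 8.3 to 26.5 CPM in WT and 0.394 to 2.29 in KO, and the marrow stroma markers at 95.9 to 196 in WT and 16.1 to 31.8 in KO.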

How the data were processed

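HSCs were sorted, RNA was extracted (miRNeasy Micro) and libraries were made by SMART-Seq v4, which does not mark strand, per the labels' protocols. The submitters' processing notes name FastQC 0.11.7, cutadapt 1.9.1, STAR 2.6.1e, featureCounts 1.6.2 and mm10; the annotation release and settings were not given in the sources used here. Deposited by the authors were raw gene counts, used for every test, and a TPM table rounded to 1 decimal, used for levels between genes. The count table had 27 names turned into dates, restored from the TPM table.

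The collagen genes and gene lists were chosen with earlier results of these data known. Values of every library are given for members past an adjusted p of 0.05 in any comparison and for the 12 with the highest mean TPM; pathway genes are the 3 smallest adjusted p per list. edgeR 4.0.16 (R 4.3.3) fitted 4 group means to all 12 libraries with TMM scaling; filterByExpr kept 19395 genes and left out 16474, and 5 comparisons were tested two-sided, with Benjamini-Hochberg adjustment across every tested gene. The SE comes from the F statistic. Alternatives used DESeq2 1.42.0 and limma 3.58.1 among others. The test was also run on simulated counts, drawn independently for each library. These had no linked libraries and no WT libraries set apart, so that run does not check the test for the design here. No replicate pair agreed within sampling noise (chi-square per degree of freedom 14.8 to 259). Same-numbered KO libraries of both gates deviated together (r = 0.429, 0.608 and 0.469 over 11386 genes), and the WT labels did not (0.0985 and -0.48). The highest r between WT gates was 0.574, for CD41pos WT 4 with CD41neg WT 2. Coordinates are from GENCODE vM21 (GRCm38) and promoters from RefSeq.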

Additional observations from a re-analysis of the deposited data

How the results depend on the processing

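Of 22 calls of a collagen gene in a comparison, 6 were kept under every alternative that gave a value: Col8a1 in both gates, Col6a2 in CD41neg and Col18a1 in CD41pos cells for KO against WT, and Col18a1 and Col5a1 between gates in KO. No called value reversed. The 8 calls in CD41pos cells were 5 with only the groups compared, 4 with a term for the 4 WT libraries numbered 6 or lower, and 4 and 2 by limma on log2(TPM + 1) and log2(TPM + 0.1). The 8 in CD41neg cells were 15 by DESeq2 (which called 16% of all genes, against 7.82%), 5 with at least 1 CPM in 3 libraries, 3 with that term, 2 without those 4 libraries, and 4 and 3 by limma. WT gates gave 5 by DESeq2 in place of 3. The interaction gave 2 by DESeq2 and 2 without those 4 libraries in place of 0. At 1 TPM in 3 libraries 10 members were detected in place of 37, and 44 at 1 count. Leaving out 1 library gave 2 to 10 calls in CD41pos and 2 to 12 in CD41neg cells, 3 to 4 in WT gates, 2 to 3 in KO gates, 0 for the interaction and 36 to 37 detected. With the replicate number as a block the counts were 4 and 3 for KO against WT, and with the animal label as a block 0 in WT gates; no other collagen count moved by over 1.5 times with a block, while all-gene counts fell from 3309 to 957 and from 1517 to 458 with the number and from 541 to 156 in KO gates with the label. Uncalled values that changed sign or went to 0 were Col4a1 in CD41neg cells (-0.01 with the replicate block, -0.09 without the 4 WT libraries), Col4a2 there (-0.16 with the block, -0.18 to -0.15 without CD41neg KO 1 or 3, and up to 0.54 without KO 2), Col5a1 in CD41pos cells (-0.04 without the 4) Col28a1 (0.23 in CD41pos cells without the 4, 0.00 in CD41neg cells by limma) and Col6a3 in CD41pos cells (0.67 without CD41pos WT 3 and down to -2.48 without WT 1, 0.00 by limma on log2(TPM + 0.1)); Col19a1 in CD41pos cells was at 0.00 by limma. The causes were not tested. Members under 10 counts in a library are limited by depth.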
